A study of Homo sapiens with 2 samples.

Results

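The semaphorin, plexin, neuropilin, Eph receptor, ephrin and reelin genes were examined in SAS, a cell line established from a human squamous carcinoma of the tongue. Members were taken by name alone: a gene entered if a probe of the array was annotated to that gene only and its symbol began with SEMA, PLXN, EPHA, EPHB, EFNA or EFNB, or was NRP1, NRP2 or RELN. This gave 54 of the 18336 named genes, on 82 of 24740 single-gene probes. They comprised 20 semaphorins, 9 plexins with both neuropilins, 14 Eph receptors, 8 ephrins and RELN.

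One sample was a control called neo (neo cells) and the other carried a short hairpin RNA against ATMIN (shATMIN cells), a gene that encodes a transcription factor and cofactor of the ATM kinase; the question was the part of ATMIN in the progression of cancer. Each group had 1 sample, measured with Cy5 label on 2 listed arrays each, so no difference has a replicate check and none was tested. The protocol text is the same for both: lipid transfection of the hairpin plasmid, then, after 24 h, medium with 10% serum and 3 µg/mL puromycin, from which resistant clones were grown. The sources used here give neither the construct in neo cells nor the number of clones, so hairpin, clone and construct cannot be told apart in any difference reported.

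Semaphorins are secreted or membrane-bound guidance proteins. Most signal through plexins, which act on the cytoskeleton and on cell adhesion, and class 3 semaphorins usually need a neuropilin as co-receptor. Eph receptors form the largest family of receptor tyrosine kinases and bind ephrins on neighbouring cells, the A ephrins being held by a lipid anchor and the B ephrins spanning the membrane, so that both cells can receive a signal. Reelin is a secreted matrix glycoprotein that guides neurons through lipoprotein receptors. In epithelia these families influence cell adhesion, cell sorting and migration, and several members, SEMA3B among them, have been studied as tumour suppressors.

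The 250 bases before the start of 5 members are shown because these genes carry the differences described next: SEMA3B and RELN were the lowest members in shATMIN cells, EPHA1 and EPHA2 the lowest receptors and EFNA5 the highest member. The sequences are those of RefSeq on GRCh38.p14, at chr3:50272869-50273118 on the plus strand for SEMA3B, chr7:103989659-103989908 on the minus strand for RELN, chr7:143408857-143409106 on the minus strand for EPHA1, chr1:16156070-16156319 on the minus strand for EPHA2 and chr5:107670938-107671187 on the minus strand for EFNA5. Each reads 5′ to 3′ along its gene, and capitals mark the GC box GGGCGG, the motif of the SP1 family, on either strand, adjoining or overlapping copies running together.
SEMA3B: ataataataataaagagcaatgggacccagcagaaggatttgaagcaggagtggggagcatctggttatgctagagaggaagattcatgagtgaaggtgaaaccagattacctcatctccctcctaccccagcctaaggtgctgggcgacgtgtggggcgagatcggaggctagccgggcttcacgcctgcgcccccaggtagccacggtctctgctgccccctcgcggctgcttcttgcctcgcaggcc
RELN: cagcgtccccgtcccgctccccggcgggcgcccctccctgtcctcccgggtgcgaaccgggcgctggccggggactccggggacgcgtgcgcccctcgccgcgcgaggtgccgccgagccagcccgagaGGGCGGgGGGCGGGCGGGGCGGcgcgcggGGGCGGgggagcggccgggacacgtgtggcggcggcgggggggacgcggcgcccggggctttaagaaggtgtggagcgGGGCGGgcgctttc
EPHA1: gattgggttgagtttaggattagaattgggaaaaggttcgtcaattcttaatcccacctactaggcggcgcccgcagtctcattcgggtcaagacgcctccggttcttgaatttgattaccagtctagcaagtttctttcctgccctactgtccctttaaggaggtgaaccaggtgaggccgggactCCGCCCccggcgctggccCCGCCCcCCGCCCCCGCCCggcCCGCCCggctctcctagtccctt
EPHA2: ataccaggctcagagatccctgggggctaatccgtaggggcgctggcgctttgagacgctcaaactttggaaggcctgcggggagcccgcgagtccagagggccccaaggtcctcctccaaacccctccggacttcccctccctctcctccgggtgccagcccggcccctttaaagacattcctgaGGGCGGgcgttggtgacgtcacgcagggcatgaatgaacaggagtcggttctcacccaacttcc
EFNA5: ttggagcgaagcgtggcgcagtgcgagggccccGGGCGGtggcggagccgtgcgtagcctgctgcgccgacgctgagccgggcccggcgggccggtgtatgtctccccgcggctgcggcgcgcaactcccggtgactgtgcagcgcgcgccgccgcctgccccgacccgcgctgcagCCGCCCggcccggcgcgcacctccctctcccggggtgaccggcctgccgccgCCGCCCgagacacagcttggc

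The 2 lowest members differed widely in these stretches. SEMA3B had a GC content of 57.6%, 11 CG dinucleotides and no GC box, and RELN had 83.2%, 43 and 6. EPHA1 had 5 GC boxes, EPHA2 had 1 and EFNA5, the highest member, had 3. SEMA3C, also lower in shATMIN cells on its brighter probe, had no GC box and a GC content of 36.4%. A stretch was at hand for 48 of the 54 members, of which 31 were bright enough to compare, and 26 of the 31 (83.9%) held a GC box, against 64.6% of 10144 compared genes and 42.3% of all 27305 stretches. The AP-1 motif TGANTCA, searched on both strands, was in none of the 31, against 4.16% of compared genes. The TATA motif TATAAA, also on both strands, was in 1 of them, that of EFNB2, against 6.53%. A match of letters is not a binding site, and no match says only that these letters are absent from these bases.

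As a check of the label, the targeted gene ATMIN read 105 in neo cells and 61.5 in shATMIN cells, a log2 difference of -0.76. Intensities were transformed as log2(intensity + 1), which understates differences of dim genes, and a difference is always shATMIN minus neo. The ATMIN difference was -0.53 with each sample divided by its 75th percentile and -0.48 with 50 added in place of 1. Its shATMIN value lies close to 58.9, the intensity at the threshold for comparison given below. Of all compared genes 12.2% were at least 1.5-fold lower, so this value alone does not establish the knockdown. Over all probes the median was 109 in neo cells against 106 in shATMIN cells and the upper quartile 629 against 535. The 10 squamous epithelial markers lay between 1013 and 30887 in both samples, with a sum of 76937 in neo cells against 69135 in shATMIN cells. Among them KRT14 differed by 0.99, KRT6A by 1.00 and TP63 by -1.19, or by -0.06 on its other probe. Of the markers of other cell types 12 of 26 were bright enough to compare and 8 of the 12 were lower, near the 70.7% of all compared genes that were lower. Dim ones were PTPRC of leukocytes at 13.5 and 14, COL3A1 of fibroblasts at 2.5 and 2 and CLDN5 of endothelium at 17.5 and 15. Compared ones included CD14 at 2858 and 2602, CD68 at 272 and 174, COL1A1 at 459 and 423, CDH5 at 175 and 115, VWF at 184 and 164, TEK at 148 and 195, PECAM1 at 77.0 and 85.5, TUBB3 at 2087 and 1544 and SOX10 at 586 and 439. ITGAM of leukocytes was higher, at 70.5 and 103, a difference of 0.54, and LUM and PDGFRA of fibroblasts differed by 0.01 and -0.01. CD68 and CDH5, at -0.64 and -0.60, were at least 1.5-fold lower. Over the whole leukocyte list the summed intensity was 3234 in neo cells against 2915 in shATMIN cells, over the endothelial list 627 and 612, over the fibroblast list 730.5 and 690.1, and over the neuron and Schwann cell list 2824 and 2153. Their part in the differences was not tested.

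A gene stood for comparison by its brightest probe where the mean log2 level of that probe reached the 40th percentile of all probes, 5.90. Of the 54 members 36 passed and 18 were dim. The dim genes were SEMA3D, SEMA3E, SEMA3G, SEMA6B, SEMA6C, SEMA6D, PLXNA3, PLXNA4, PLXNB3, PLXNC1, EPHA3, EPHA4, EPHA5, EPHB1, EPHB3, EPHB6, EFNA2 and EFNA3. Their intensities lay between 5 and 59.5 in both samples and their differences between -0.43 and 0.48, none of them 2-fold. At the threshold, EFNB2 and SEMA3A lay just inside with mean levels of 5.93 and 6.10, and probes of PLXNA1 and PLXNA3 lay just outside at 5.71 each.

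**Figure D1:**
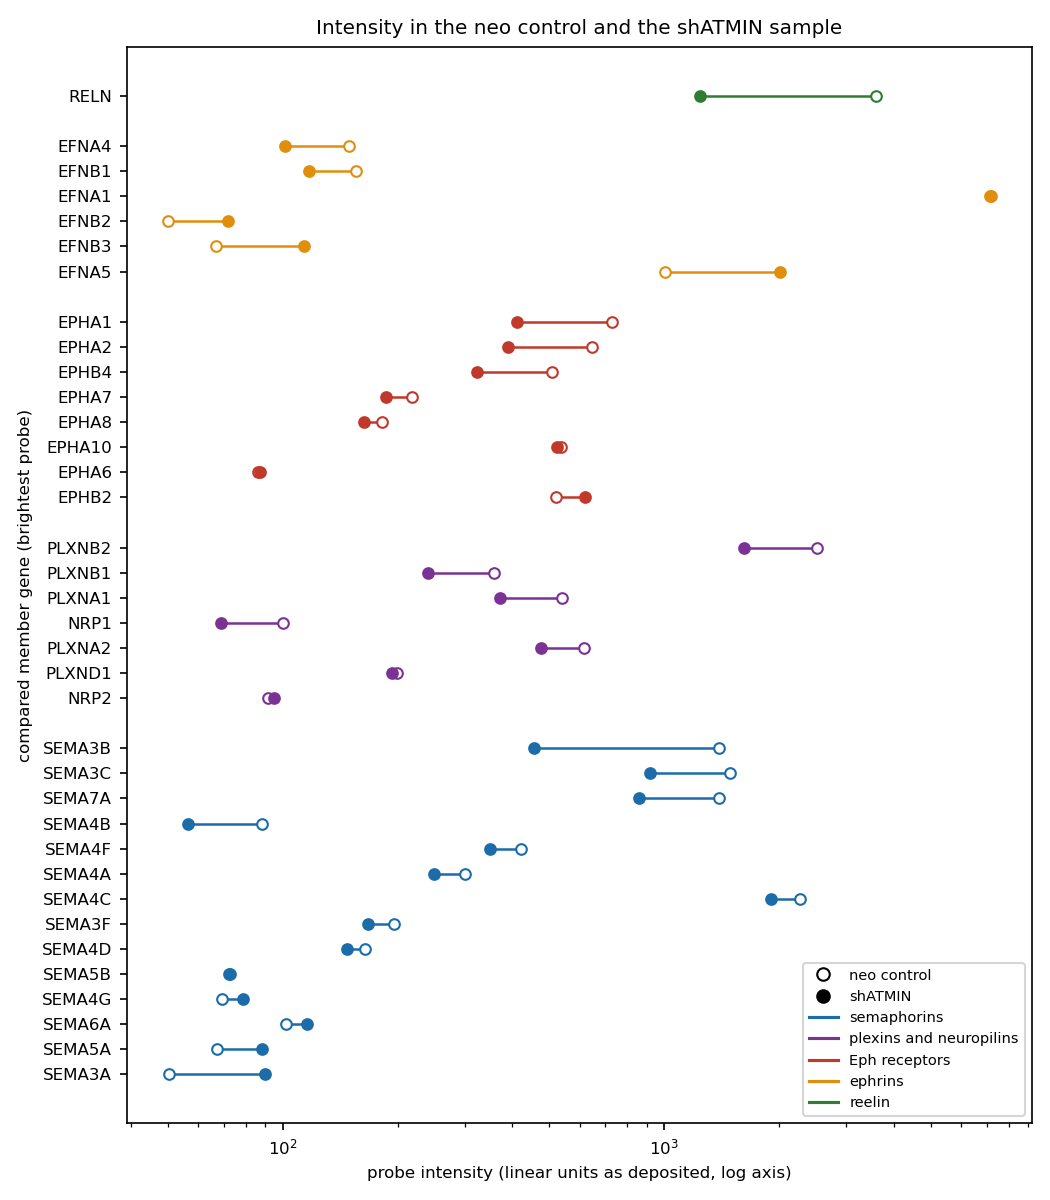
Intensity of the brightest probe of each of the 36 compared members in neo cells (open circles) and shATMIN cells (filled circles), on a logarithmic axis in the linear units deposited, with 1 sample per group and no error bars. Long lines to the left mark SEMA3B (1393 to 457) and RELN (3582 to 1240), and the longest to the right marks EFNA5 (1003 to 2012).

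Of the 36 compared members 25 were lower in shATMIN cells (69.4%), as were 70.7% of the 12421 compared genes of the array, so this count is close to the background. The median difference was -0.24, beside -0.16 over all compared genes. By a size of 2-fold, 2 members were lower, SEMA3B and RELN, where 1.34% of compared genes were, and 1 was higher, EFNA5, where 0.459% were. By a size of 1.5-fold, 9 of 36 (25%) were lower and 3 of 36 (8.33%) higher, beside 12.2% and 1.9% of all compared genes. The 9 were SEMA3B, SEMA3C, SEMA4B, SEMA7A, PLXNB2, EPHA1, EPHA2, EPHB4 and RELN. The 3 were SEMA3A, EFNB3 and EFNA5. SEMA4B and SEMA3A passed the filter only through the sample where they are higher, so these counts are not free of the filter.

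Reelin, which in the brain places migrating neurons, read 3582 in neo cells and 1240 in shATMIN cells, a difference of -1.53 or 2.89-fold on 1 probe. It was the gene at rank 10 from the lowest among all 12421. Of its pathway 7 of 8 compared genes were lower, beside 70.7% of all compared genes and 79.6% of those with a mean log2 level above 9. The median was -0.43, and 2 of the 8 were at least 1.5-fold lower, where 12.2% of all compared genes were. The adaptor CRKL read 4676 and 2443, a difference of -0.94, but 0.08 on another probe. RAPGEF1, an exchange factor that binds CRKL, named after its values were seen, stood at -0.42 and, on another probe, 0.21. PAFAH1B1, a dynein regulator that binds reelin-pathway proteins, stood at -0.64. The receptor LRP8 read 2053 and 1515, a difference of -0.44. With the trend of the difference on level removed, 7 of the 8 were still lower, where 49.7% of all compared genes were, and the median was -0.21.

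Among the semaphorins 14 were compared, 9 of them lower, beside 70.7% of all compared genes, with a median of -0.24. SEMA3B, a secreted class 3 semaphorin, read 1393 in neo cells and 457 in shATMIN cells, a difference of -1.61 or 3.04-fold, at rank 8 from the lowest of all compared genes. Its probe was the only one for this gene, and the 2 readings recovered behind the lower value were 451 and 463. SEMA7A, which is anchored to the membrane by a lipid and signals through integrins and plexin C1, read 1389 and 858, a difference of -0.69. SEMA4B, a membrane semaphorin, read 88.5 and 56.5, a difference of -0.64.

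SEMA3A, the secreted semaphorin that collapses growth cones through NRP1 and A plexins, went the other way: it read 50.5 and 90.0, a difference of 0.82. Its 2 readings were 50.1 and 50.9 in neo cells and 87.8 and 92.2 in shATMIN cells, which do not overlap. Readings lay apart in that direction in 21.1% of compared genes with both pairs recovered. A second, dim SEMA3A probe gave 0.17. SEMA3C was not settled, because its brighter probe read 1488 and 916, a difference of -0.70, and its other compared probe read 86.0 and 157, a difference of 0.86. SEMA3F, the remaining class 3 member compared, stood at -0.23.

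The class 4 semaphorins, membrane proteins that bind B plexins and other receptors, were lower in 5 of 6 genes, or in 4 of 6 with division by the 75th percentile. Beside these counts, 70.7% and 41.2% of all compared genes were lower. SEMA4F, SEMA4A, SEMA4C and SEMA4D stood at -0.28, -0.27, -0.25 and -0.16, and SEMA4G at 0.17. SEMA4C read 2274 and 1907. Apart from SEMA7A the compared members of classes 5 to 7 were not lower, with SEMA5B at 0.01, SEMA6A at 0.18 and SEMA5A at 0.39. SEMA5A read 67.5 and 88.5, and SEMA6A 102 and 115.5.

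All 5 compared plexins were lower as deposited, beside 70.7% of all compared genes. The median of plexins and neuropilins was -0.53, or -0.24 with the mean of each gene's compared probes. PLXNB2, a receptor of class 4 semaphorins found widely in epithelia, read 2511 in neo cells and 1623 in shATMIN cells, a difference of -0.63. PLXNB1, the receptor of SEMA4D, read 357 and 240.0, a difference of -0.57. PLXNA1, which pairs with neuropilins, was lower by 2 compared probes, at 541 and 370.5 on one and 285 and 176 on the other, differences of -0.55 and -0.69. PLXND1, a receptor of SEMA3E, read 199.5 and 193.5, a difference of -0.04, and its sign turned under each other scaling.

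PLXNA2 read 618 and 476 on its brighter probe, a difference of -0.37, and 442 and 589 on the other, a difference of 0.41, so its direction is not settled. The neuropilin gene NRP1 read 100 and 69.0 on one probe, a difference of -0.53, but 72.0 and 74.0 on another, a difference of 0.04. NRP2 read 91.5 and 95, a difference of 0.05. The 2 readings of NRP2 were 72.8 and 110 in neo cells and 86.2 and 104 in shATMIN cells, and they overlap.

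Of the Eph receptors 8 were compared and 6 were lower, with a median of -0.19, near the 70.7% of all compared genes that were lower. When each sample was divided by its 75th percentile 3 of the 8 were lower, near the 41.2% of all compared genes. EPHA1, a receptor of A ephrins named for the erythropoietin-producing hepatoma line in which it was found, read 731 in neo cells and 411 in shATMIN cells, a difference of -0.83. EPHA2, the main Eph receptor of many carcinoma cells, read 646 and 390.5, a difference of -0.72. EPHB4, the receptor of ephrin B2, read 509 and 323, a difference of -0.65. For each of these 3 the readings of neo cells lay above both readings of shATMIN cells, at 727 and 735 against 410 and 412 for EPHA1, and each rests on 1 probe. Readings lay apart in that direction in 48.1% of compared genes with both pairs recovered.

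EPHB2, a receptor of B ephrins, was the highest receptor at 0.25, reading 521 and 620. EPHA7 stood at -0.22, EPHA8 at -0.15, EPHA10, whose kinase domain is thought to be inactive, at -0.04 and EPHA6, at 86.0 and 87.0, at 0.02. The EPHA10 value of shATMIN cells, 523, was the mean of readings of 399 and 648, on either side of the neo readings of 530.2 and 545.

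The ephrins were split, with 3 of 6 compared genes higher, or 4 of 6 with division by the 75th percentile, and a median of 0.25. Of all compared genes 70.7% were lower as deposited and 41.2% with that division. EFNA5, a lipid-anchored ligand of A receptors that can also bind EPHB2, read 1003 in neo cells and 2012 in shATMIN cells, a difference of 1.00. A second EFNA5 probe read 422 and 593, a difference of 0.49, with readings of 398 and 447 against 585 and 601. EFNB3 read 67.0 and 114, a difference of 0.76, and EFNB2, the ligand of EPHB4, read 50 and 72.0, a difference of 0.52. The neo values of EFNB2 and SEMA3A, like the shATMIN value of SEMA4B, lie below 58.9, the intensity at the threshold, so the size of their differences is uncertain. Each of these genes passed the filter only through the sample where it is higher, so the filter favoured the direction seen.

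EFNA1, a ligand of EPHA2, differed little as deposited on both of its probes, at 7177 and 7136 on one and 131 and 132 on the other. EFNA4 read 150 and 102, a difference of -0.55, and EFNB1 156 and 118, a difference of -0.41. RefSeq also lists a joint transcript of the neighbouring genes EFNA4 and EFNA3, so the EFNA4 probe could read either transcript.

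**Figure D2:**
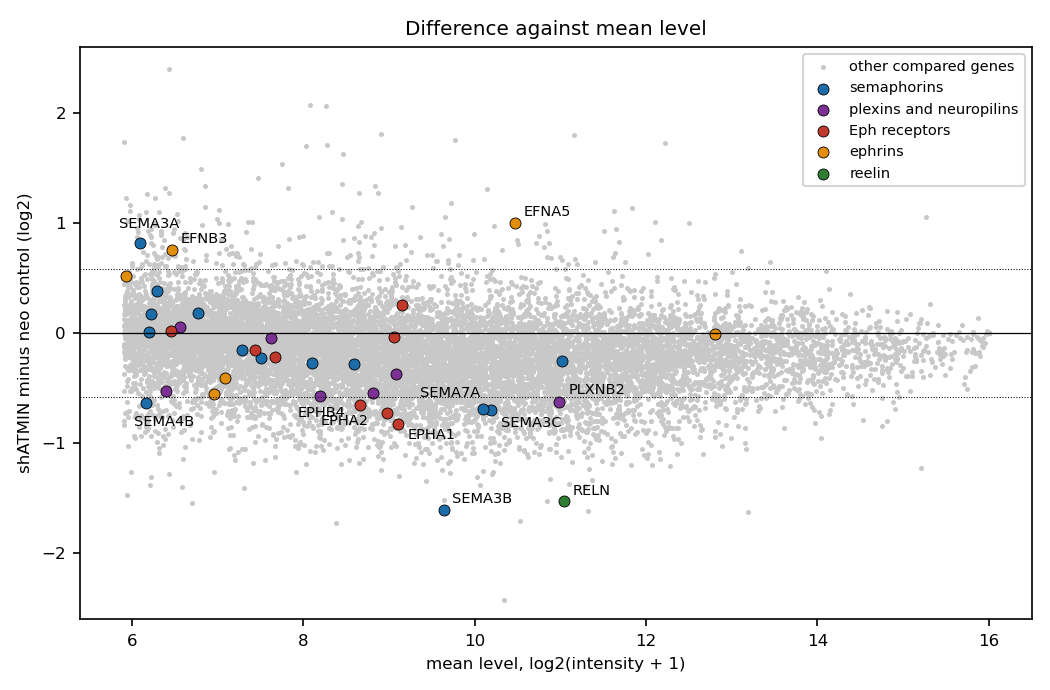
Log2 difference, shATMIN minus neo cells, against mean log2 level for the 36 compared members (coloured by family) and other compared genes (grey), where 5 grey genes beyond 2.5 on the vertical axis are not drawn and dotted lines mark 1.5-fold. Members with mean levels under 7 lie mostly above 0, those from 7 to 9 all below it.

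The direction of a member went with its level. Below a mean log2 level of 7, 9 of 12 members were higher. Among the 9 were SEMA3A and EFNB2, which passed the filter only through the shATMIN sample, where they are higher. From 7 to 9 all 12 were lower, and above 9 it was 10 of 12. Over all compared genes the share that was lower also went up, from 52.2% below 7 to 66.7% and 79.6%. After a smooth trend of the difference on level was removed, 21 of 36 members were lower, where 49.7% of compared genes were, 3 of 12 in the lowest band, 11 of 12 in the middle band and 7 of 12 in the highest band.

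On that scale 4 members stood at least 1.5-fold lower (11.1%, beside 4.89% of compared genes), which were SEMA3B at -1.35, RELN at -1.27, SEMA4B at -0.64 and EPHA1 at -0.60, the SEMA4B difference being -0.38 with a pseudocount of 50. The same 3 as before stood at least 1.5-fold higher (8.33%, beside 3.53%), EFNA5 at 1.27, SEMA3A at 0.81 and EFNB3 at 0.78. With each sample divided by its 75th percentile, which adds nearly a constant to every difference, 18 members were lower, where 41.2% of compared genes were, and 18 higher, and the median of all compared genes moved from -0.16 to 0.07. On that scale 3 members stood at least 1.5-fold lower and 5 higher, where 3.9% and 5.06% of compared genes did. All 12 members past 1.5-fold as deposited had the same sign on both scales. The median of the plexins and neuropilins was -0.33 after removal of the trend and -0.30 after division by the 75th percentile, where PLXND1 was higher and the other 4 plexins lower. The median of the Eph receptors was -0.08 and 0.05.

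**Figure D3:**
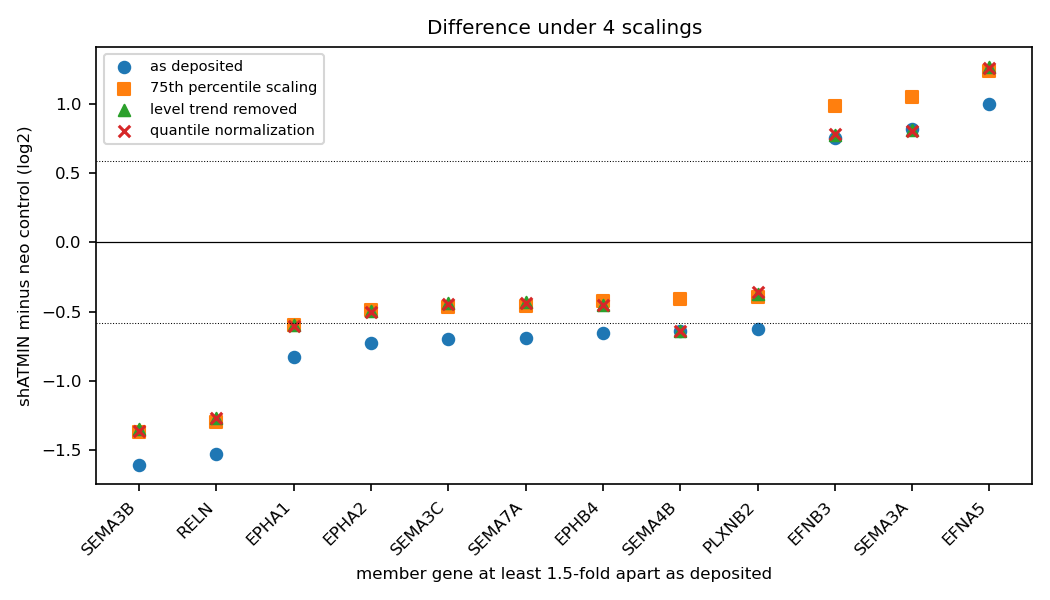
Log2 difference of the 12 members at least 1.5-fold apart as deposited, under 4 scalings of the samples, with dotted lines at 1.5-fold. All 12 keep their direction under all 4, and EPHA1 comes to about the dotted line (-0.60).

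Probes of the same gene set one limit on these values. Over 2973 genes with several compared probes the differences of probes of a gene had a pooled SD of 0.34, and over 8 such members it was 0.48. In 4 of the 8 members, EFNA5, PLXNA1, EPHA10 and SEMA4D, the probes had one sign, as in 62.8% of the 2973 genes, and in EFNA1, NRP1, PLXNA2 and SEMA3C they did not. Of the 12 members past 1.5-fold, 10 rest on 1 compared probe.

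**Figure D4:**
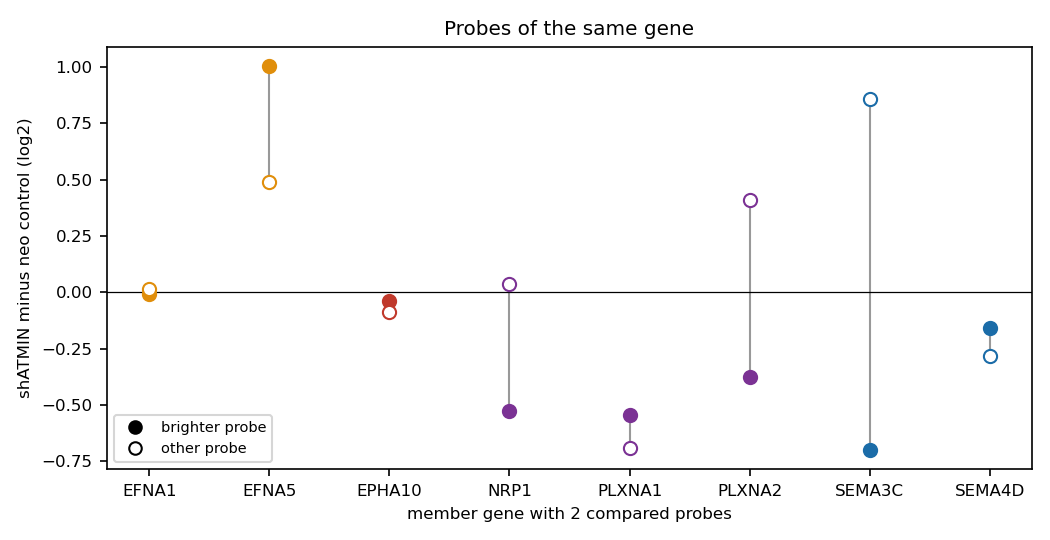
Log2 difference of each compared probe for the 8 members with 2 compared probes, the brighter probe filled and the other open. Both EFNA5 probes (1.00 and 0.49) and both PLXNA1 probes (-0.55 and -0.69) lie on one side of 0, and the SEMA3C probes (-0.70 and 0.86) lie far apart.

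Readings behind the values set another. Of the deposited values under 1000, 99.5% in neo cells and 99.6% in shATMIN cells could be read back as the mean of 2 nearly whole readings, which may be the arrays listed per sample, although the sources do not say so. Pooled over the compared probes with readings recovered, the SD between readings was 0.19 in neo cells and 0.17 in shATMIN cells on the log2 scale. The median SD of a probe was lower, at 0.069 and 0.063. For 28 compared members both pairs were recovered. In 16 (57.1%) both shATMIN readings lay below both neo readings, in 7 (25%) above, and in 5 the pairs overlapped. Over all 7392 compared genes with both pairs the shares were 48.1% and 21.1%, so pairs apart are common and do not mark a member. Other cultures or clones are not part of this technical spread.

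**Figure D5:**
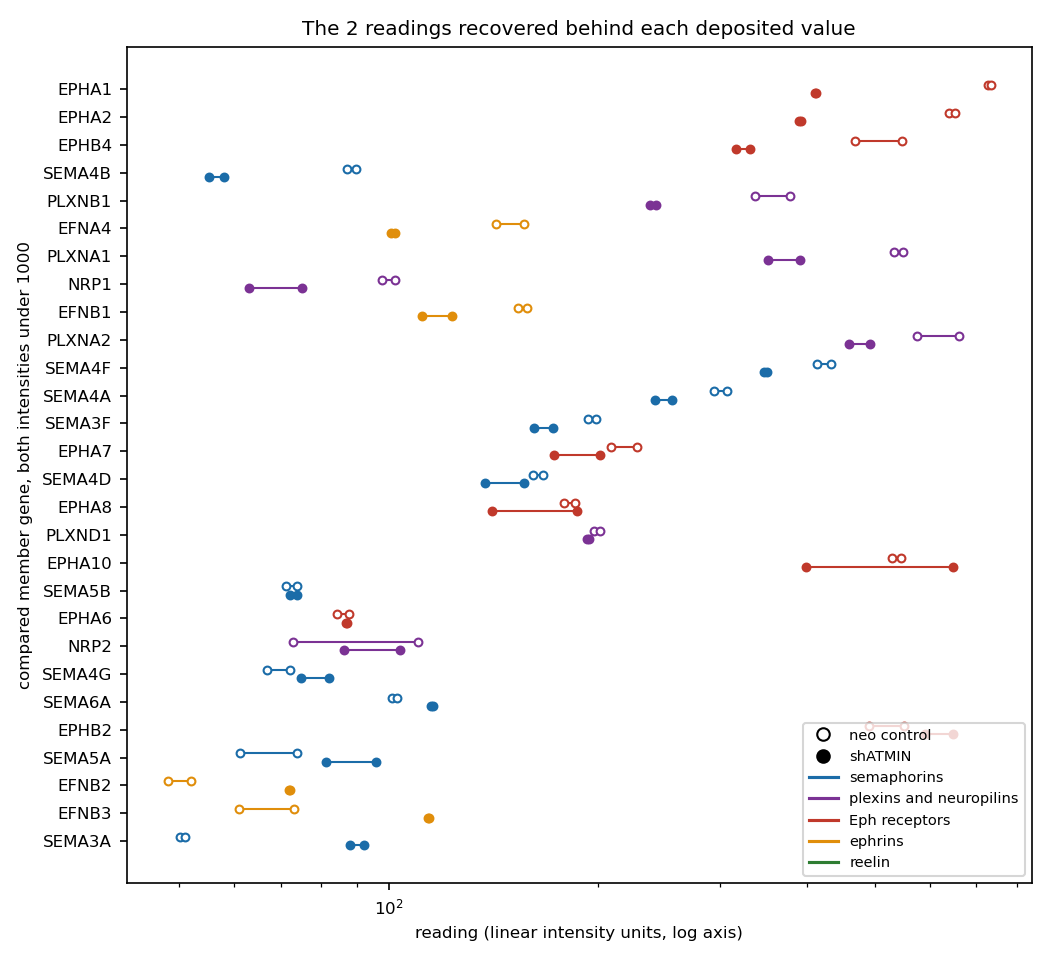
The 2 readings behind each deposited value in neo cells (open circles) and shATMIN cells (filled circles) for the 28 compared members with both intensities under 1000, on a logarithmic axis in linear intensity units. The pairs of EPHA1, EPHA2 and EPHB4 are well apart, and those of EPHA8, EPHA10, EPHA6, SEMA5B and NRP2 overlap.

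Other guidance genes were described by list. Of the slit and robo genes 4 of 7 compared genes were lower, with a median of -0.06, none 1.5-fold, and with SRGAP1, an effector of ROBO receptors, at 0.28 on its brightest probe and 0.50 and 0.48 on others, SRGAP3 at -0.23 and the receptor ROBO1 at 0.22. Of the netrins and their receptors 5 of 8 were lower, with a median of -0.12. NTN1 read 127 and 187, a difference of 0.56 on one probe (0.64 with the level trend removed) and 0.20 on another, and NTN4 read 5533 and 3943, a difference of -0.49. RGMB, a ligand of the netrin receptor neogenin, stood at -0.44.

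Effectors of semaphorins and plexins were lower in 10 of 17 compared genes, with a median of -0.23. CRMP1, a mediator of the SEMA3A signal, was the one gene at least 1.5-fold higher, at 187 and 345 (0.88), and MICAL3, a flavin monooxygenase of the family that acts on actin, stood at -0.84 and, on a second probe, -0.46. MICAL2 gave -0.63 and 0.38 on its probes. Effectors of Eph receptors and ephrins were lower in 12 of 18, with a median of -0.24. ROCK2, a protein kinase that acts on the actin cytoskeleton, read 5707 and 2753, a difference of -1.05, INPPL1, a lipid phosphatase that binds Eph receptors, stood at -0.66, and VAV2, a guanine nucleotide exchange factor, at -0.60. Of the receptors and ligands that pair with neuropilins and plexins 7 of 9 were lower, with a median of -0.15. MST1R, a receptor tyrosine kinase that can pair with B plexins, read 90.0 and 49.5, a difference of -0.85. Its shATMIN value lies below 58.9, the intensity at the threshold, so MST1R passed only through the neo sample and the size of its difference is uncertain. ERBB2, a partner of PLXNB1, read 264 and 168, a difference of -0.65, and VEGFA, a ligand of neuropilins, stood at -0.28 and, on a second probe, -0.39. With the level trend taken out, 3 of 7, 4 of 8, 8 of 17, 9 of 18 and 4 of 9 genes of these 5 lists were lower. Of all compared genes 49.7% were lower on that scale and 70.7% as deposited.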

How the data were processed

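The authors deposited 1 linear intensity per probe and sample, and some values lie just below 0. Per the labels, RNA was extracted with Trizol, amplified and labelled with Cy5. Scanner, background correction, scaling and how arrays were combined: not given in the sources used here. Of 31741 probes, 24740 named 1 gene, 977 several and 6024 none in the platform annotation, updated through RefSeq (GRCh38.p14), and no member's symbol needed updating.

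Values below 0 were set to 0 and log2(intensity + 1) was taken. No test was made. Groups came from the sample titles. The members, gene lists and alternatives were chosen with earlier results of these data known. Genes were named in full where at least 1.5-fold apart, among the 3 highest, 3 lowest or 3 of highest mean level of a family, or with probes of opposite sign, and up to 3 per further list. RAPGEF1 was an addition to this rule. Promoter genes and motifs were chosen after values were seen. Readings were recovered for 99.5% and 99.6% of values under 1000, within 5e-05. The fitted factors of the paired readings were 1.0022 and 0.9978 (neo cells), or 1.0019 and 0.9981 (shATMIN cells). A difference of these factors from 1 that was 1.3 times too large resolved 12.6% and 12.3% of values under 100, against 99.9% in each sample. The calculations were tested on simulated data. Alternatives were scaling, pseudocount, dim filter, probe choice and bright probes, with 1 added after seeing the data. The level trend was a loess fit with a span of 0.3. Tools were matplotlib 3.10.9, statsmodels 0.14.6, NumPy 2.4.6, pandas 2.3.3 and Python 3.11.15.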

Additional observations from a re-analysis of the deposited data

How the results depend on the processing

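No paired analysis was possible because each group has 1 sample. The count of members at least 1.5-fold lower was 9 as deposited, 3 with division by the 75th percentile and 4 with quantile normalization or removal of the level trend. The count at least 1.5-fold higher was 3 as deposited, 5 with division by the 75th percentile and 1 with a pseudocount of 50 or a dim filter at the 55th percentile, which left 23 members. The count at least 2-fold higher was 1, EFNA5, as deposited, 2 with division by the 75th percentile and 0 with a pseudocount of 16 or 50 or the mean of a gene's probes. The median of the Eph receptors was -0.19 as deposited, 0.0458 with division by the 75th percentile and 0.0193 with no dim filter. With the mean of its probes SEMA3C stood at 0.0785 in place of -0.70, and PLXNA2 at 0.02. SEMA3A stood at 0.48 with a pseudocount of 50. SEMA4B stood at -0.38 there. Of 29 single genes, 4 (EFNA1, EPHA10, PLXND1 and SEMA4C) changed sign under at least 1 of 3 scalings and 3 (EFNA1, PLXNA2 and SEMA3C) with the mean of probes. Over all compared members 7 turned from lower to higher with division by the 75th percentile, among them SEMA3F, SEMA4D, EPHA7 and EPHA8, which are outside the 29. There were 100 group values over 10 alternatives (1 of them, leaving out genes whose probes differ in sign, chosen after seeing the data). Of these values 88 stayed within 0.34 and kept their sign for medians, or stayed within 1.5 times for counts. The 2 Eph receptor medians above moved by less than 0.34 but changed sign. The limit is wide, since division by the 75th percentile moves differences by about 0.23 and leaving out probes over 60000 changes no member. The cause was not tested. The samples' quartiles differ and no source states a scaling, so a difference of 0.2 or so can take either sign. Dim members are limited by signal over background.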

Other observations

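The genome neighbours of the members furthest apart were read as a description, chosen after the values were seen. The 3 nearest compared genes on each side of SEMA3B, which include SEMA3F, differed by -0.77 to 0.19, with 5 of 6 lower. Those of RELN differed by -0.27 to 0.17, with 3 of 6 lower. Those of EFNA5 differed by -0.08 to 0.45, with 3 of 6 lower, and those of EPHA1 by -0.66 to 0.04, with 4 of 6 lower. Of all compared genes 70.7% were lower. In each case the member stood further from 0 than any of these neighbours, which its choice by size of difference made likely in advance.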
